A study of Mus musculus with 73 samples.

Results

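The genes described here encode the enzymes that write, copy and remove cytosine methylation in mouse embryos, with the factors that recruit or restrain them. All 10 were chosen by name (Dnmt1, Uhrf1, Dnmt3a, Dnmt3b, Dnmt3l, Tet1, Tet2, Tet3, Tdg and Dppa3), and all 10 were found among the 30546 genes of the table. RNA was sequenced from the epiblast, which forms the embryo proper, and from the extraembryonic ectoderm (ExE), which contributes to the placenta, of single embryos at E6.5. Reads were counted where a polymorphism tells the BDF1 genome from the CAST genome, so every embryo was a hybrid of both.

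Wild-type BDF1xCAST embryos (7 epiblast and 7 ExE libraries) came from BDF1 oocytes injected with CAST sperm and were transferred to CD-1 females. The knockout embryos had the same cross, fertilisation and transfer. Their zygotes were also injected with Cas9 mRNA and several guide RNAs against Dnmt1 (3 and 3 libraries), G9a and Glp together (the genes Ehmt2 and Ehmt1; 6 and 8), Rnf2 (6 and 5) or Eed (9 and 10). Such embryos were the injected generation itself and can be mosaic, with alleles that differ between cells. The reciprocal wild type, CASTxBDF1 (4 and 4 libraries), was made by natural mating of CAST females with BDF1 males, so the direction of the cross and the mode of fertilisation cannot be told apart. BDF1 mice are themselves a hybrid of C57BL/6 and DBA/2, so the BDF1 allele of a gene can differ between embryos. Each library was 1 tissue of 1 embryo of either sex, after enzymatic removal of the visceral endoderm.

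Dnmt1 copies methylation onto the new strand after replication, and Uhrf1 brings it to half-methylated sites. Dnmt3a and Dnmt3b place methylation on unmethylated DNA, and Dnmt3l, which has no catalytic activity of its own, stimulates both. Tet1, Tet2 and Tet3 oxidise methylcytosine, Tdg excises the oxidised bases, and Dppa3 (also called Stella) protects methylation in the zygote and holds Uhrf1 away from chromatin. After implantation the epiblast gains methylation over nearly the whole genome, while the ExE stays at an intermediate level with methylation over many CpG islands. Eed is a core subunit of Polycomb repressive complex 2, Rnf2 is the ubiquitin ligase of Polycomb repressive complex 1, and G9a and Glp methylate lysine 9 of histone H3.

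The promoters of Dnmt3b and Dnmt3l are shown because these genes had opposite lineage patterns and were called in opposite directions in Rnf2 and Eed knockout epiblast. In each sequence, which runs 5′ to 3′ on the plus strand of GRCm38.p6 as given by RefSeq, the CG dinucleotides are in capitals and all other bases are in lower case. RefSeq gave 1 start for Dnmt3b, on chromosome 2, and 3 starts for Dnmt3l, on chromosome 10.
Dnmt3b, chr2:153649199-153649498: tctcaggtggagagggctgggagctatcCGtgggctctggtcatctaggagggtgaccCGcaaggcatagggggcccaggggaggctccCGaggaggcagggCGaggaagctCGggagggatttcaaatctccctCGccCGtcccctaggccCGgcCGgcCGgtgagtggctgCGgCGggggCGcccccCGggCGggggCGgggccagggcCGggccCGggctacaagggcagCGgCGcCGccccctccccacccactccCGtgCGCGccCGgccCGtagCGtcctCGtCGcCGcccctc
Dnmt3l start 1, chr10:78042037-78042336: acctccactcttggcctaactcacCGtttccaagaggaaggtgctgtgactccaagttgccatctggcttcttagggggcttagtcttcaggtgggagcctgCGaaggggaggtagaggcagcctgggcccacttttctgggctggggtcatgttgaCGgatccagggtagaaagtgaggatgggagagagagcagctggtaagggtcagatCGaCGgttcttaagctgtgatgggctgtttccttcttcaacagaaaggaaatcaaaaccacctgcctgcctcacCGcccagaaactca
Dnmt3l start 2, chr10:78049592-78049891: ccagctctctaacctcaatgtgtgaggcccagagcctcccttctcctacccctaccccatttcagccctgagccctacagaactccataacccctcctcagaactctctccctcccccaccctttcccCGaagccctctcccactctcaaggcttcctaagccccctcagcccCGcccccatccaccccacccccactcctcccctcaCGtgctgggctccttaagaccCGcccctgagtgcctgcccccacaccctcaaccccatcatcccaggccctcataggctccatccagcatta
Dnmt3l start 3, chr10:78055085-78055384: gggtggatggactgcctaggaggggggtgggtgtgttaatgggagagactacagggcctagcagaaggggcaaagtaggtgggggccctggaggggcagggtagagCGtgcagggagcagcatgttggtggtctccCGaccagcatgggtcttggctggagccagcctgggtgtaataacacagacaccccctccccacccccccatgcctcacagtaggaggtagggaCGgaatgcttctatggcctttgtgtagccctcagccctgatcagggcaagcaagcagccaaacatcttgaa

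The Dnmt3b window held 30 CG dinucleotides, a number reached by 11.7% of the 32851 mouse promoters of the same length of 300 bases. The Dnmt3l windows held 6, 4 and 3, numbers reached by 56.4%, 68.6% and 76.7% of promoters. CG reads the same on both strands, so each site is counted once. Among the other enzymes, Tet2 had the most CG-rich window with 57, followed by 2 overlapping windows of Dnmt3a with 46 and 47. Promoters of 9 of the 10 genes were matched, all but that of Dppa3. The counts describe letters in a window and no methylation was measured in the libraries used.

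On mm10, the Dnmt3 genes lie on chromosome 12 from 3804986 to 3914443 (Dnmt3a), chromosome 2 from 153649165 to 153687730 (Dnmt3b) and chromosome 10 from 78042287 to 78063622 (Dnmt3l). Dnmt1 lies on chromosome 9 from 20907206 to 20959888 and Uhrf1 on chromosome 17 from 56303337 to 56323486. Tet1 spans 62804570 to 62887581 and Tdg 82629821 to 82650494, both on chromosome 10. Tet2 lies on chromosome 3 from 133463677 to 133545196. Tet3, at 83362373 to 83457242, and Dppa3, at 122626424 to 122630271, are both on chromosome 6. All are protein-coding genes. Dnmt3l overlaps Aire, Tdg overlaps Glt8d2, and Dnmt3a, Tet3 and Dnmt1 overlap noncoding genes, so reads could have been shared because use of strand was not recorded. RefSeq also lists processed copies named after Dppa3, Tdg and Dnmt3b, and how reads were split between such copies is uncertain.

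Libraries held 1141414 to 17653087 reads over polymorphisms, and the deepest were Rnf2 libraries. Levels below are read counts scaled to a library total of 1000000 reads (CPM) and are compared within a gene only, because genes differ in length and number of polymorphisms. In bulk tissue, fewer cells of a type and less RNA per cell cannot be told apart. Among targeted genes, Eed averaged 9.38 CPM in Eed knockout epiblast against 157 in wild type, and 7.94 against 201 in ExE. Rnf2 averaged 26.5 against 45.3 CPM in epiblast and 35.2 against 45.5 in ExE, and Ehmt1 21.2 against 29.3 and 14.8 against 29.3 CPM. Ehmt2 averaged 3.07 CPM in both G9a-Glp and wild-type epiblast, and 3.75 against 15.4 CPM in ExE. No Eed knockout library and no Dnmt1 knockout epiblast reached the lowest wild-type level of its target. Of the others, 1 of 3 did in Dnmt1 ExE, 4 of 6 and 3 of 8 in G9a-Glp epiblast and ExE (Ehmt1), and 2 of 6 and 5 of 5 in Rnf2 epiblast and ExE. For Ehmt2 it was 6 of 6 in G9a-Glp epiblast, where the lowest wild-type level was 0.396 CPM, and 2 of 8 in ExE. Results were also computed without the libraries highest in the target: embryo 1 of Dnmt1 ExE, embryos 2 and 7 of G9a-Glp epiblast, and embryos 2, 5 and 6 of Rnf2 ExE. That choice followed an earlier analysis of these data. The epiblast markers Fgf5 and Tdgf1 averaged 382 and 511 CPM in BDF1xCAST epiblast and 0.551 and 2.57 CPM in ExE, whereas Elf5, an ExE marker, averaged 1.29 and 265 CPM. The full lists separated the tissues less. The 9 epiblast markers summed to a median of 1396 CPM in that epiblast and 331 CPM in ExE. The 9 ExE markers summed to a median of 106 and 812 CPM. Pou5f1, a defining epiblast gene, averaged 0.635 CPM in epiblast and 0 in ExE, so these counts do not show it. Summed visceral endoderm markers reached 656 CPM in BDF1xCAST epiblast embryo 8, against a median of 25.7 in that group, and 2548 CPM in CASTxBDF1 epiblast embryo 2, against a median of 50.2.

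**Figure D1:**
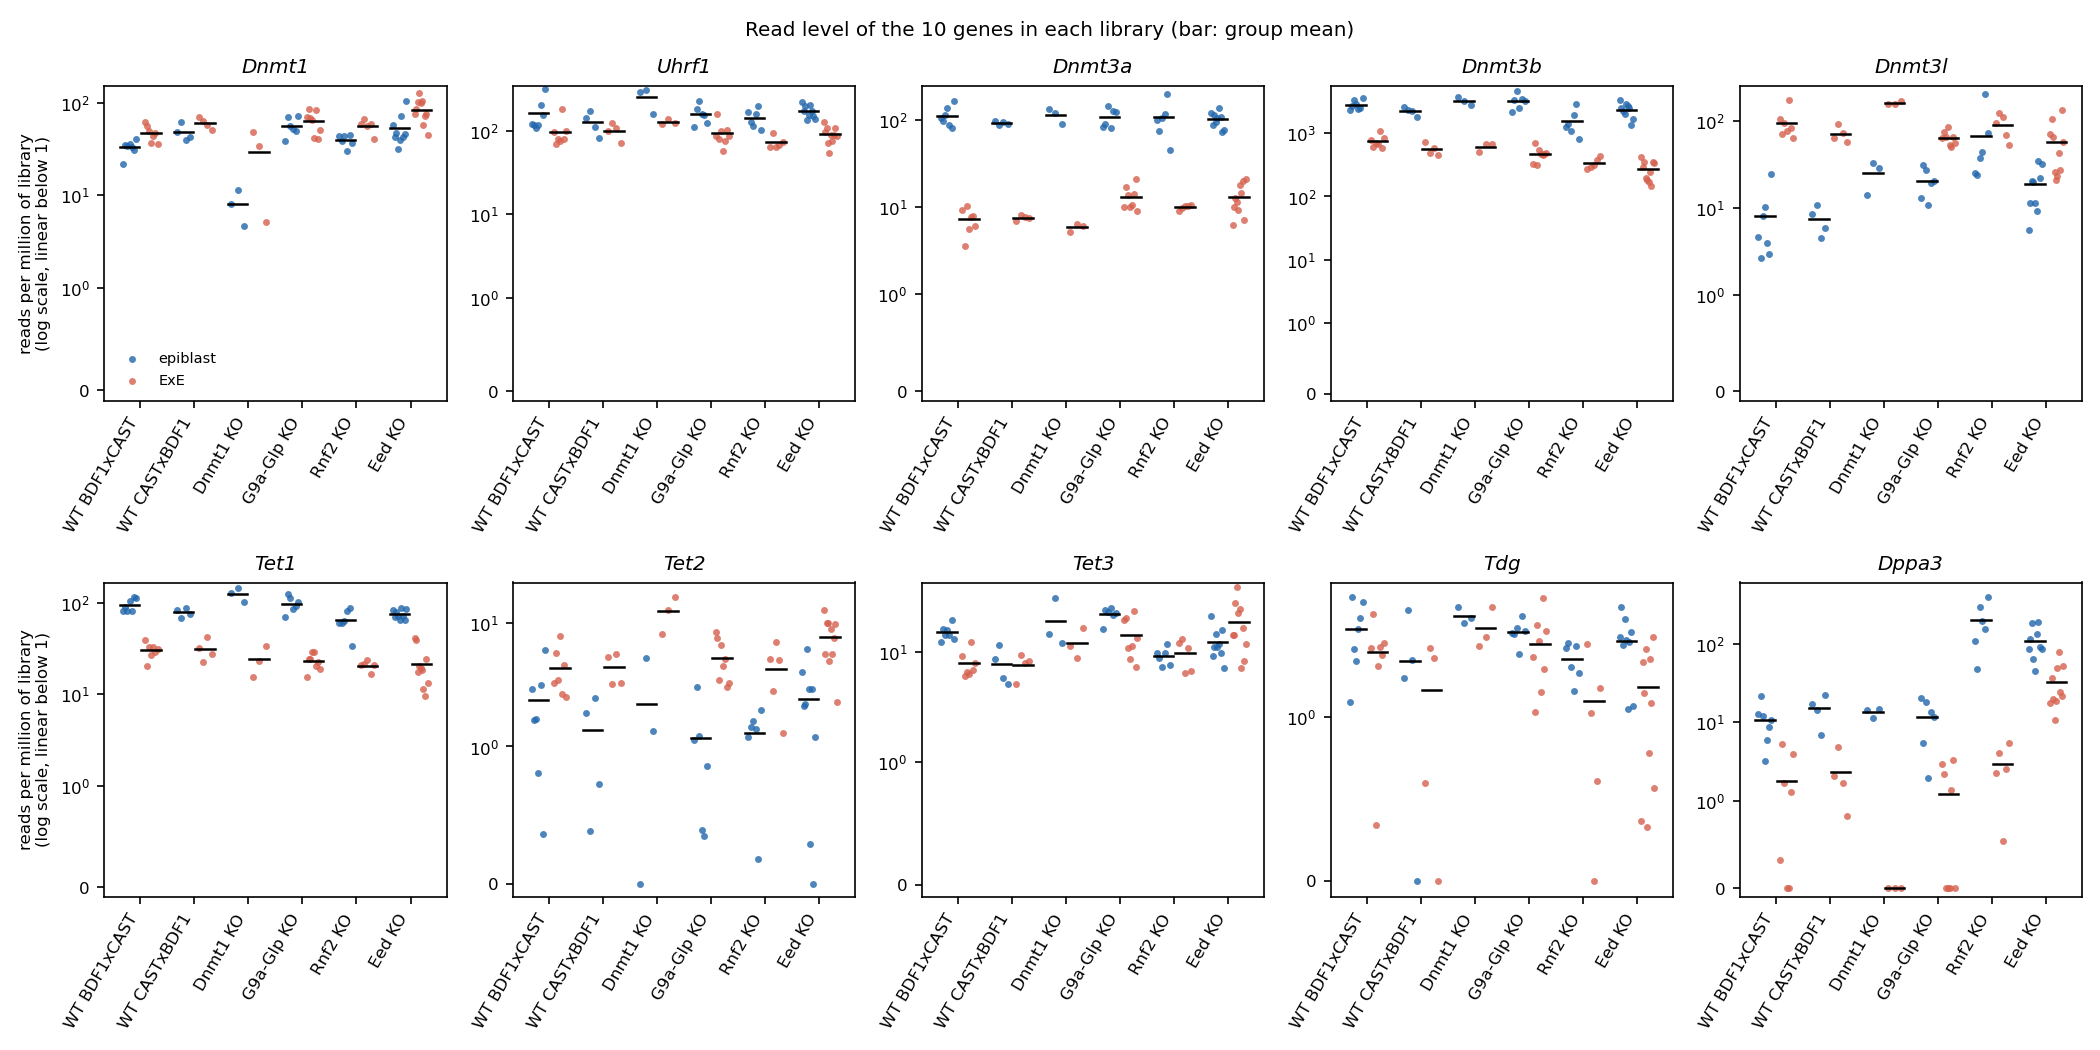
Level in CPM (log scale, linear below 1) of the 10 genes in every library, by genotype, with epiblast in blue, ExE in red and bars at the group means. Dnmt3a, Dnmt3b and Tet1 sit lower in wild-type ExE than in epiblast, Dnmt3l sits higher, and Dppa3 is high in Rnf2 and Eed knockout epiblast (means of 197 and 109 CPM against 10.7).

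The first comparison asked how the machinery differs between the lineages in wild-type embryos. In BDF1xCAST embryos, the 8 genes with enough reads for the test all differed between ExE and epiblast, 2 higher and 6 lower in ExE. Of all 9340 genes tested, 56.7% differed, 28.3% higher and 28.4% lower. The groups did not overlap for 4 of these genes (Dnmt3a, Dnmt3b, Dnmt3l and Tet1), where the background is 24.8% of genes. Tet2 and Tdg had too few reads to be tested. In CASTxBDF1 embryos, 5 of 8 genes differed, 1 higher and 4 lower in ExE, against a background of 45% (22% higher and 23% lower). The direction of these 5 was the same in both crosses, and none of the 5 overlapped between tissues, where the background is 40.2%.

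Of the de novo enzymes, Dnmt3a had the largest fold difference among the 8 tested genes. It ranged from 80.2 to 163 CPM with a median of 105 in BDF1xCAST epiblast and from 3.58 to 10.3 CPM with a median of 7.67 in ExE. Every ExE library lay below every epiblast library, and the fitted level was 14.9-fold lower in ExE (log2 fold change −3.89 ± 0.22 SE, adjusted p = 1.03e-10). The CASTxBDF1 epiblasts had 97.2, 86.5, 93.9 and 89.8 CPM and the ExE of the same embryos 6.86, 8.06, 7.65 and 7.41 CPM, a log2 difference of −3.62 ± 0.21 (adjusted p = 1.51e-07).

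Dnmt3b, the second de novo enzyme, ranged from 2321 to 3555 CPM with a median of 2685 in BDF1xCAST epiblast and from 576 to 1093 CPM with a median of 696 in ExE. It was 3.64-fold lower in ExE (log2 −1.86 ± 0.16, adjusted p = 2.3e-08) and lower in 7 of 7 embryos. In CASTxBDF1 it averaged 2207 ± 323 CPM in epiblast and 562 ± 126 CPM in ExE (SD, n = 4), a log2 difference of −1.99 ± 0.17 (adjusted p = 2.23e-06).

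Dnmt3l, the cofactor of both, ran the other way. BDF1xCAST epiblasts held 2.64 to 24.4 CPM with a median of 4.64, and ExE held 63.2 to 171 CPM with a median of 82.6. The highest epiblast value was 24.4 CPM in embryo 8, and the next was 10.1 CPM. Embryo 8 was the library of its group highest in summed visceral endoderm markers and ExE markers (ExE markers at 236 CPM, median 106). It was also the highest in epiblast markers (2229 CPM, median 1396) and nascent mesoderm markers (1198 CPM, median 434). The fitted level was 13.1-fold higher in ExE (log2 3.71 ± 0.38, adjusted p = 2.26e-07) and the log2 difference was 4.21 without embryo 8. CASTxBDF1 epiblasts had 8.54, 10.7, 4.51 and 5.79 CPM against 64.1, 91.6, 71.7 and 57.4 CPM in ExE (log2 3.26 ± 0.28, adjusted p = 2.31e-06). Reads of the overlapping gene Aire were at most 8 in any wild-type library.

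The maintenance genes differed less between tissues. Dnmt1 ranged from 21.9 to 40.4 CPM with a median of 34.0 in BDF1xCAST epiblast and from 35.7 to 62.2 CPM with a median of 47.4 in ExE. It was 1.48-fold higher in ExE (log2 0.57 ± 0.16, adjusted p = 0.00562), in 6 of 7 embryos, and the ranges overlapped. In CASTxBDF1 the log2 difference was 0.31 ± 0.20 (adjusted p = 0.223). Uhrf1 ranged from 106 to 312 CPM with a median of 121 in BDF1xCAST epiblast and from 69.9 to 180 CPM with a median of 80.4 in ExE. Its log2 difference was −0.67 ± 0.24 (adjusted p = 0.025), and the call was lost when embryo 1, 7 or 8 was left out (adjusted p of 0.0532, 0.0773 and 0.0561). With the embryo as a block, since both tissues came from the same embryos, the adjusted p was 0.00189, and Uhrf1 was lower in ExE in 7 of 7 embryos. The CASTxBDF1 value was −0.34 ± 0.23 (adjusted p = 0.243), with Uhrf1 lower and Dnmt1 higher in the ExE of 4 of 4 embryos.

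Among the oxidising enzymes, Tet1 differed between the tissues in both crosses. Epiblast held 81.1 to 114 CPM with a median of 90.8 and ExE held 20.1 to 38.6 CPM with a median of 31.4, so that the groups did not overlap. It was 3.06-fold lower in ExE (log2 −1.61 ± 0.15, adjusted p = 6.6e-08) in BDF1xCAST. In CASTxBDF1 the 4 epiblasts had 83.1, 68.2, 87.3 and 74.6 CPM and the 4 ExE had 31.6, 22.6, 42.5 and 27.2 CPM (log2 −1.36 ± 0.23, adjusted p = 0.000342). Tet3 ranged from 12.2 to 19.6 CPM in BDF1xCAST epiblast and from 6.09 to 12.3 CPM in ExE, a 1.86-fold lower level (log2 −0.90 ± 0.22, adjusted p = 0.00172). In CASTxBDF1, epiblast and ExE averaged 7.70 ± 2.91 and 7.66 ± 1.84 CPM (SD, n = 4; adjusted p = 0.997), so the difference in Tet3 was found in 1 cross only; whether the crosses differ was not tested. Tet2 averaged 2.39 CPM in epiblast and 4.29 CPM in ExE of BDF1xCAST, from 1 to 21 reads a library. Tdg, the glycosylase, averaged between 1.28 and 4.90 CPM in the 12 groups, from 0 to 52 reads a library, and differences in it were not detectable at this depth.

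Dppa3 ranged from 3.23 to 21.5 CPM with a median of 10.7 in BDF1xCAST epiblast and from 0 to 5.38 CPM with a median of 1.32 in ExE. It was 5.63-fold lower in ExE (log2 −2.49 ± 0.62, adjusted p = 0.00233), with overlap between the groups. CASTxBDF1 epiblasts had 17.1, 14.5, 6.97 and 22.1 CPM, all above the ExE values of 2.09, 4.84, 1.70 and 0.823 CPM (log2 −2.68 ± 0.53, adjusted p = 0.00115). Both ExE libraries with 0 reads allow at most 1.12 and 1.00 CPM by counting error.

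**Figure D2:**
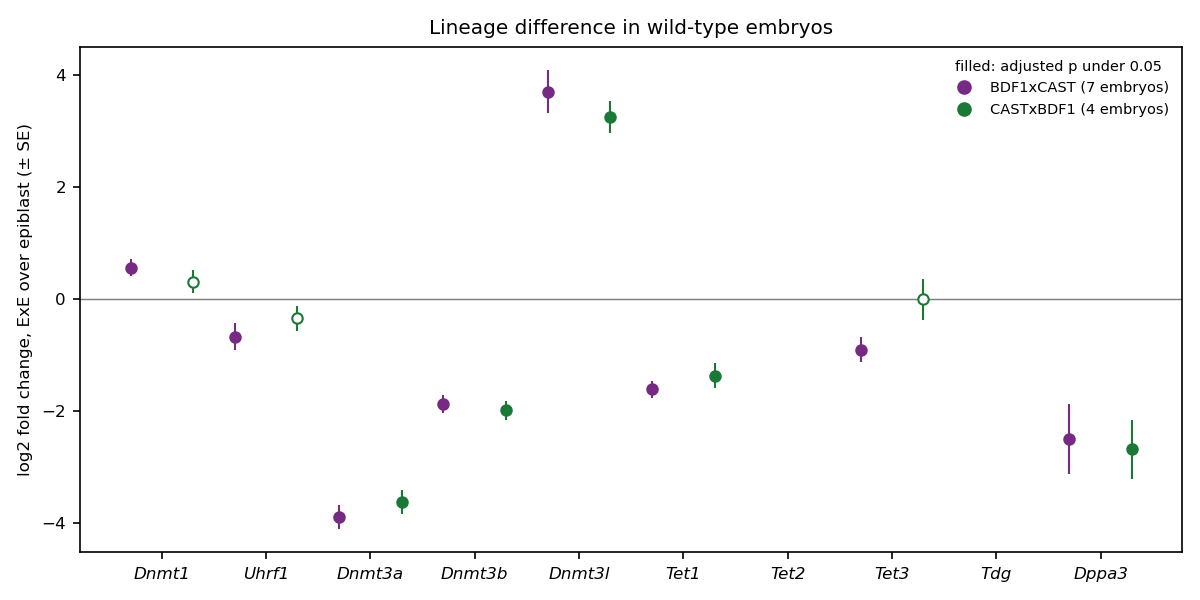
Log2 fold change of ExE over epiblast (± SE) in the 2 wild-type crosses, with filled points where the adjusted p was under 0.05. Dnmt3l lies far above 0 (3.71 and 3.26), and Dnmt3a (−3.89 and −3.62) is the lowest in both crosses.

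Between the reciprocal crosses, 0 of 9 genes differed in epiblast (background 0.0103%, 1 gene of 9669) and 0 of 8 in ExE (background 1.06%) in the edgeR test. At an unadjusted p under 0.05 the test gave 694 genes in epiblast and 1196 in ExE, and DESeq2 called 18 and 237 genes. Dnmt1 was higher in CASTxBDF1 epiblast by a log2 value of 0.61 ± 0.18 and Tet3 lower by −0.92 ± 0.27, each with an adjusted p of 0.56. The Tet3 values did not overlap between the crosses (5.07 to 11.4 against 12.2 to 19.6 CPM), as was the case for 1.6% of all genes.

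The knockouts asked which of these genes changed without each regulator, always against BDF1xCAST wild type of the same tissue. The 4 comparisons of a tissue share those 7 wild-type libraries, and CASTxBDF1 wild type was not part of them. In Dnmt1 knockout epiblast, Dnmt1 itself was the 1 called gene of the 9 tested, against a background of 13.9%. The 3 knockout epiblasts held 7.97, 11.4 and 4.70 CPM, all below the lowest wild-type value of 21.9 (17.7% of all genes did not overlap), a 4.81-fold lower level (log2 −2.27 ± 0.30, adjusted p = 0.000603). Dnmt3l stood at 14.1, 32.4 and 28.9 CPM against a wild-type median of 4.64, with a log2 difference of 1.52 ± 0.55 that did not pass (adjusted p = 0.0837). Without wild-type embryo 8 that difference was 1.98 and passed (adjusted p = 0.00458). Summed ExE markers were at 96.0 to 249 CPM with a median of 242 in these epiblasts and a median of 106 in wild type. Most of that was Eomes (179 and 99.7 CPM), with Cdx2 at 0 in both and Wnt7b at 0 in the knockout. The sum thus follows mainly Eomes, which also had reads in wild-type epiblast. Nascent mesoderm markers summed to 73.8 to 781 CPM in these epiblasts and 11.6 to 1198 CPM in wild type. The part of ExE cells in the Dnmt3l level was not tested. Dppa3, at 14.5, 11.4 and 14.8 CPM, gave a log2 difference of 0.12 ± 0.47 (adjusted p = 0.898), and Dnmt3a, Dnmt3b and Tet1 gave −0.18, −0.02 and 0.18 (adjusted p of 0.65, 0.949 and 0.57).

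In Dnmt1 knockout ExE the target was uneven. Dnmt1 held 47.9, 34.5 and 5.16 CPM against 35.7 to 62.2 CPM in wild type, so embryo 1 lay inside the wild-type range (log2 −0.95 ± 0.42, adjusted p = 0.137). The BDF1 share of these reads was 64.9% in embryo 1 (95% Wilson interval 54.8 to 73.8%, 94 reads), 11.9% in embryo 2 (5.87 to 22.5%, 59 reads) and 66.7% in embryo 3 (39.1 to 86.2%, 12 reads). In embryo 2, the reads that remained came mostly from the CAST allele. Wild-type ExE had a mean share of 50.9% ± 4.52 (SD, n = 7). The intervals cover counting error only.

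Tet2 was the 1 called gene of 8 tested in Dnmt1 knockout ExE, against a background of 18.5%. It held 8.15, 12.9 and 16.3 CPM (16, 22 and 38 reads) against 2.50 to 7.82 CPM in wild type, without overlap (25.9% of all genes did not overlap). The level was 2.44-fold higher (log2 1.29 ± 0.39, adjusted p = 0.0321). The call was lost without knockout embryo 2 or 3 (adjusted p of 0.0942 and 0.202) and without wild-type embryo 1 or 3 (0.0517 and 0.0518), and passed without knockout embryo 1 (adjusted p = 0.043). Dnmt3l was at 155, 154 and 170 CPM with a log2 difference of 0.52 ± 0.24 (adjusted p = 0.149). The overlapping gene Aire had 14 to 34 reads in these 3 libraries. Dppa3 had 0 reads in all 3, which allows up to 1.53, 1.75 and 1.29 CPM, against 0 to 5.38 CPM in wild type. It had too few reads for the main test and passed as lower in DESeq2 and without the filter on low counts (adjusted p of 0.0462 and 0.0442), and not with all 12 groups in 1 fit (0.121) or without any 1 knockout embryo (0.201 to 0.253).

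G9a-Glp knockout moved 2 of 8 genes in epiblast, against a background of 34.6%. Dnmt1 ranged from 38.4 to 71.4 CPM with a median of 53.9, and 5 of 6 libraries lay above the highest BDF1xCAST value of 40.4, a 1.60-fold higher level (log2 0.68 ± 0.16, adjusted p = 0.00383). CASTxBDF1 wild-type epiblasts held 39.8 to 61.8 CPM of Dnmt1, inside the knockout range. Dnmt3l ranged from 10.8 to 31.1 CPM with a median of 19.7, a 2.52-fold higher level with overlap (log2 1.33 ± 0.42, adjusted p = 0.022). That second call was lost without wild-type embryo 1, 6 or 7 (adjusted p of 0.0523, 0.053 and 0.052) and without both libraries highest in Ehmt1 (0.0967). The other called gene, Dnmt1, had a log2 value of 0.53 without those libraries (adjusted p = 0.0426). Dppa3 gave a log2 difference of 0.08 ± 0.46 (adjusted p = 0.914).

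In G9a-Glp knockout ExE, 3 of 8 genes passed, against a background of 15.1%. Dnmt3b was 1.68-fold lower, at 312 to 687 CPM against 576 to 1093 CPM in BDF1xCAST wild type (log2 −0.75 ± 0.17, adjusted p = 0.00529), and 7 of 8 libraries lay below every library of that wild type. CASTxBDF1 wild-type ExE held 443 to 731 CPM of Dnmt3b. Dnmt3l, at 50.0 to 85.8 CPM, had a log2 difference of −0.62 ± 0.18 (adjusted p = 0.0278), which did not pass in 4 of 14 alternatives, among them all 12 groups in 1 fit (adjusted p = 0.194), no scale factors (0.0505) and leaving out wild-type embryo 6 (0.0513). Dnmt3a, at 9.07 to 20.6 CPM, had a log2 difference of 0.81 ± 0.26 (adjusted p = 0.04), which did not pass in 8 of 14 alternative analyses, those without wild-type embryo 2, 4, 6, 7 or 8 included (adjusted p of 0.0505 to 0.0726). Epiblast markers, all 9 with reads, summed to 435 to 778 CPM in these ExE libraries and to 215 to 398 CPM in wild-type ExE, most of it Utf1 (455 and 191 CPM). Fgf5 averaged 4.88 against 0.551 CPM and Otx2 0.549 against 0.242 CPM. The same sum was 590 to 772 CPM in Dnmt1, 403 to 624 in Rnf2 and 379 to 727 in Eed knockout ExE. The part of epiblast cells in the ExE results was not tested.

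Rnf2 knockout epiblast had 5 of 8 genes called against a background of 31.1%. Dppa3 held 108, 47.1, 291, 192, 155 and 390 CPM in embryos 1, 2, 3, 5, 6 and 8, all above the wild-type maximum of 21.5 (12.3% of all genes did not overlap). It was 18.2-fold higher (log2 4.19 ± 0.47, adjusted p = 1.24e-05). Dnmt3l ranged from 23.9 to 202 CPM with a median of 40.4; embryo 6 had 202 CPM and the next library 72.6. Of the 6 libraries, 5 lay above every wild-type library. It was 9.01-fold higher (log2 3.17 ± 0.57, adjusted p = 0.000647), and the log2 difference was 2.47 without embryo 6 (adjusted p = 0.00099). Summed ExE markers were at 33.4 to 185 CPM in these libraries and at 35.0 to 236 CPM in wild-type epiblast. The overlapping gene Aire had 1 to 38 reads.

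Dnmt3b moved the opposite way in the same tissue, from a wild-type median of 2685 CPM to 1322 CPM with a range of 817 to 2853. The level was 1.84-fold lower (log2 −0.88 ± 0.22, adjusted p = 0.0074), and 5 of 6 libraries lay below all BDF1xCAST wild-type libraries. CASTxBDF1 wild-type epiblasts held 1766 to 2539 CPM of Dnmt3b, inside the knockout range. Tet3 held 7.25 to 11.7 CPM against 12.2 to 19.6 in BDF1xCAST wild type with no overlap (log2 −0.75 ± 0.20, adjusted p = 0.00932). CASTxBDF1 wild-type epiblasts, however, held 5.07 to 11.4 CPM of Tet3, which overlaps the knockout range. After all libraries were thinned to the lowest total, the log2 difference of Tet3 was −0.39 (adjusted p = 0.28). Tet1 ranged from 33.7 to 88.7 CPM (log2 −0.59 ± 0.18, adjusted p = 0.0226). Dnmt1, Dnmt3a and Uhrf1 gave log2 differences of 0.25, −0.09 and −0.18 (adjusted p of 0.237, 0.813 and 0.576).

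Rnf2 knockout ExE gave 2 called genes of 8, against a background of 22.2%. Dnmt3b held 269, 294, 319, 371 and 442 CPM in embryos 2, 4, 5, 6 and 7, all below the wild-type minimum of 576 (12.6% of all genes did not overlap), a 2.31-fold lower level (log2 −1.21 ± 0.18, adjusted p = 0.000224). Tet1 held 20.6, 21.1, 23.8, 16.6 and 20.7 CPM, of which 1 lay below the wild-type minimum of 20.1 (log2 −0.62 ± 0.17, adjusted p = 0.0189). Without the 3 libraries highest in Rnf2, Dnmt3b kept its call (adjusted p = 0.0348) and Tet1 did not (adjusted p = 0.201). Leaving out embryo 6 alone also ended the Tet1 call (adjusted p = 0.0586). Dnmt3l, at 52.2 to 122 CPM, gave −0.12 ± 0.24 (adjusted p = 0.743), and Dppa3 stayed between 0.541 and 5.43 CPM, too low to be tested.

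Eed knockout epiblast had 4 of 8 genes called, against a background of 36.9%. Dppa3 ranged from 45.1 to 187 CPM with a median of 89.5, and all 9 libraries exceeded the wild-type maximum of 21.5 (7.36% of all genes did not overlap), an 8.81-fold rise (log2 3.14 ± 0.35, adjusted p = 3.92e-06). Tet1, at 64.4 to 88.0 CPM with a median of 72.0, was 1.44-fold lower (log2 −0.53 ± 0.11, adjusted p = 0.00142). CASTxBDF1 wild-type epiblasts held 68.2 to 87.3 CPM of Tet1 and 1766 to 2539 CPM of Dnmt3b, both inside the Eed knockout ranges. Dnmt3l ranged from 5.55 to 34.8 CPM with a median of 19.5 (log2 1.15 ± 0.44, adjusted p = 0.0453) and Dnmt3b from 1344 to 3274 CPM with a median of 2479 (log2 −0.46 ± 0.15, adjusted p = 0.0251). Each of these last calls was lost in 6 of 14 alternatives. The Dnmt3l call needed wild-type embryos 1, 2, 3, 6 and 7 (adjusted p of 0.0634 to 0.0961 without each), and the Dnmt3b call needed embryos 3 and 4 (0.0598 and 0.0697).

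In Eed knockout ExE, 6 of 9 genes passed, against a background of 40.8%. Dppa3 ranged from 10.6 to 79.1 CPM with a median of 22.9 against at most 5.38 CPM in wild type, with no overlap, as for 7.99% of all genes (16.6-fold, log2 4.05 ± 0.60, adjusted p = 2.08e-05). It passed the filter on low counts only through the knockout group. Dnmt3b ranged from 146 to 421 CPM with a median of 269, all 10 libraries below the wild-type minimum of 576, a log2 difference of −1.65 ± 0.21 (adjusted p = 2.71e-06). Tet3 rose 2.05-fold, from 6.09 to 12.3 CPM in wild type to a range of 7.16 to 38.3 CPM (log2 1.04 ± 0.29, adjusted p = 0.00667). Dnmt1 rose 1.57-fold to a median of 80.5 CPM (log2 0.65 ± 0.16, adjusted p = 0.00274), and 8 of 10 libraries exceeded the highest BDF1xCAST value of 62.2. CASTxBDF1 wild-type ExE held 50.8 to 70.0 CPM of Dnmt1.

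The remaining calls in Eed knockout ExE were lower levels with overlap. Dnmt3l ranged from 20.6 to 131 CPM with a median of 49.8 (log2 −0.92 ± 0.31, adjusted p = 0.0239; 0.0731 without wild-type embryo 6). Tet1 ranged from 9.56 to 41.2 CPM with a median of 18.9 (log2 −0.70 ± 0.23, adjusted p = 0.0209). Neither passed without scale factors (adjusted p of 0.074 and 0.117). Dnmt3a, at 6.19 to 21.0 CPM, gave 0.73 ± 0.30 (adjusted p = 0.054), and Uhrf1 −0.28 ± 0.18 (adjusted p = 0.232). Uhrf1 passed the test in 0 of the 8 knockout comparisons, which had backgrounds of 13.9 to 40.8%.

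**Figure D3:**
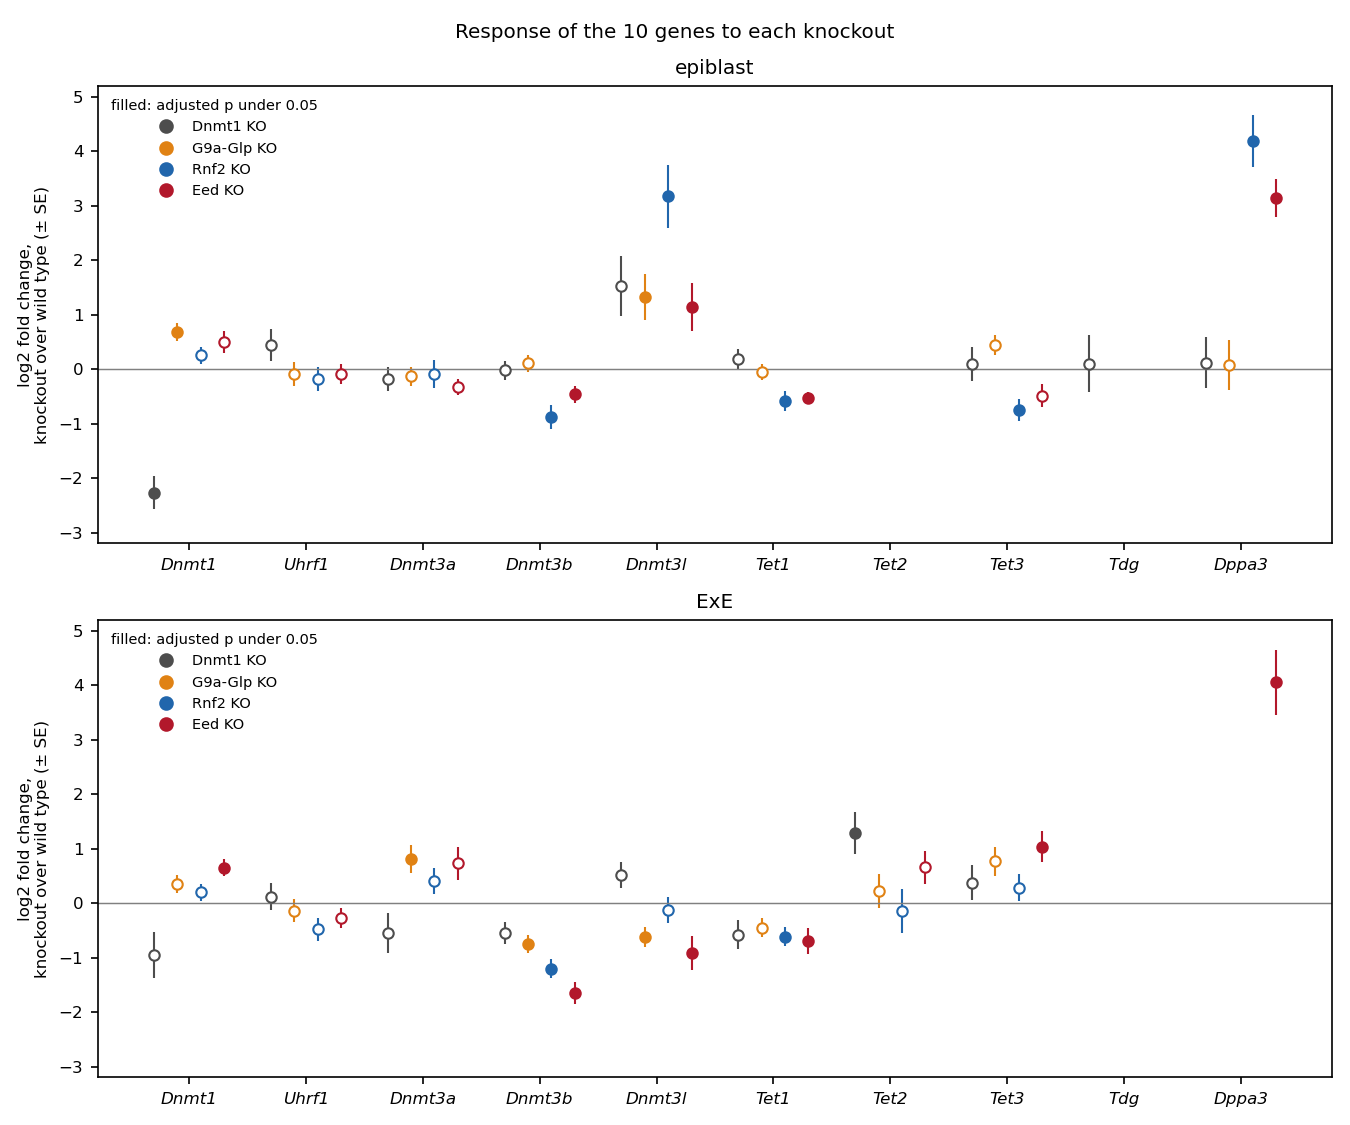
Log2 fold change of each knockout over BDF1xCAST wild type (± SE) in epiblast (top) and ExE (bottom), with filled points where the adjusted p was under 0.05 and no point where a gene had too few reads. Dppa3 and Dnmt3l lie highest in Rnf2 knockout epiblast (4.19 and 3.17), and Dnmt3b lies below 0 in ExE, at −0.75 (G9a-Glp), −1.21 (Rnf2) and −1.65 (Eed).

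Dppa3 is also a marker of primordial germ cells, so the markers of that cell type are given beside it. The summed level of 6 germ cell markers (Prdm1, Prdm14, Nanos3, Dnd1, Ifitm3 and Kit) was 133 to 259 CPM in BDF1xCAST epiblast, 1048 to 3022 in Rnf2 knockout, 551 to 841 in Eed knockout, 452 to 531 in Dnmt1 knockout and 272 to 536 in G9a-Glp knockout epiblast. Most of it was Ifitm3, which is also expressed outside the germ line, at a mean of 175 CPM in wild type, 1724 in Rnf2 and 685 in Eed knockout. Prdm1 averaged 1.25 CPM in wild type, 6.00 in Rnf2, 5.71 in Eed, 4.92 in Dnmt1 and 19.8 in G9a-Glp knockout epiblast. Prdm14 averaged 0.259, 0.198 and 0.190 CPM, Nanos3 0.181, 0.169 and 0.280, Dnd1 3.51, 2.15 and 4.50, and Kit 14.5, 16.3 and 23.6 CPM in wild-type, Rnf2 and Eed knockout epiblast. The part of germ cells in the Dppa3 level was not tested. In ExE the sum was 3.43 to 67.5 CPM in wild type and 12.2 to 98.1 CPM in Eed knockout. Nascent mesoderm markers, which track the stage of the epiblast, summed to 11.6 to 1198 CPM in wild-type epiblast, 33.4 to 191 in Rnf2 knockout and 75.0 to 450 in Eed knockout epiblast. The part of stage in the epiblast results was not tested.

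Whether a response differed between the tissues was tested directly as an interaction, in which a negative value is a lower response in ExE. For Dnmt1 knockout, 0 of 10 genes passed (background 0.282%) in edgeR; 1067 of all genes had an unadjusted p under 0.05 and DESeq2 called 109. For G9a-Glp knockout, 3 genes passed, against a background of 6.83%: Dnmt3l (−1.94, adjusted p = 0.00525), Dnmt3b (−0.82, adjusted p = 0.0302) and Dnmt3a (0.98, adjusted p = 0.0449). Without epiblast embryos 2 and 7, Dnmt3l passed (adjusted p = 0.028), whereas Dnmt3b and Dnmt3a did not (0.0704 and 0.0972).

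For Rnf2 knockout 3 genes passed, against a background of 6.82%: Dnmt3l (−3.30, adjusted p = 0.0016), Dppa3 (−3.41, adjusted p = 0.0153) and Tet3 (1.03, adjusted p = 0.0387). Without ExE embryos 2, 5 and 6, Dnmt3l passed (adjusted p = 0.0446) and Dppa3 and Tet3 did not (0.179 and 0.161). Tet3 also did not pass without embryo 2, 4 or 6 alone (0.0914, 0.0988 and 0.0688). After all libraries were thinned to the lowest total, Dnmt3l passed and Dppa3 and Tet3 did not. Dppa3 was too low to be tested in Rnf2 ExE alone and entered this test through its epiblast reads. For Eed knockout 4 genes passed, against a background of 15.9%: Tet3 (1.53, adjusted p = 0.00339), Dnmt3b (−1.19, adjusted p = 0.0029), Dnmt3l (−2.08, adjusted p = 0.00889) and Dnmt3a (1.06, adjusted p = 0.0218). These 4 passed in all 5 alternative analyses, which changed the method, scaling, filter or set of groups fitted. None of those left out a library or fitted the embryo as a block. Dppa3 rose in both tissues of Eed knockouts, and the difference of 0.92 between its responses did not pass (adjusted p = 0.401).

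Other genes of the pathway were read from 4 lists. Of the methylation cofactors and one-carbon genes (20 listed), 3 were higher and 8 lower of 17 tested in BDF1xCAST ExE against epiblast, with a median log2 difference of −0.39 against −0.01 for all genes. Shmt1, which feeds one-carbon units, was higher (1.47), and Zfp445, which protects imprints, and Hells, a chromatin remodeller needed for methylation, were lower (−1.08 and −0.65). These 11 calls stand beside the background of 56.7%. Dnmt1 knockouts had 1 call among 18 tested in epiblast (background 13.9%) and 1 among 17 in ExE (18.5%). With 17 tested in each of the other comparisons, G9a-Glp knockouts had 7 calls in epiblast (34.6%) and 3 in ExE (15.1%), Rnf2 knockouts 4 (31.1%) and 6 (22.2%), and Eed knockouts 5 (36.9%) and 8 (40.8%). The calls in ExE were lower levels but for 1 gene, in Eed knockouts. In Rnf2 knockout ExE, Uhrf2, a relative of Uhrf1, was at −0.78 and Ahcy, which clears the product of methyl transfer, at −0.65. Trim28, a corepressor recruited by zinc finger proteins, averaged 277 ± 33.3 CPM there against 534 CPM in wild type.

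Of 16 methyl-CpG and CpG binding proteins, 1 was higher and 4 lower of 9 tested in BDF1xCAST ExE (median −0.20, background 56.7%). Dnmt1 knockouts had 2 calls of 13 tested in epiblast (background 13.9%) and 1 of 10 in ExE (18.5%). G9a-Glp knockouts had 3 of 11 (34.6%) and 2 of 9 (15.1%), and Rnf2 knockouts 2 of 11 (31.1%) and 1 of 10 (22.2%). Eed knockouts had 0 of 11 (36.9%) and 2 of 10 (40.8%). The call in Dnmt1 knockout ExE was Mbd3, at 260 CPM against 67.6 CPM in wild type (log2 1.69). Of 22 excision and oxidation partners, 5 were higher and 2 lower of 16 tested in BDF1xCAST ExE (median 0.51), which is 7 calls beside the same background. Gadd45g and Gadd45b, stress proteins linked to demethylation, were higher in ExE (5.02 and 4.80), while the glycosylase Neil3 and the repair signalling enzyme Parp1 were lower (−1.03 and −0.63). Of this list, Dnmt1 knockouts had 3 calls of 15 tested in epiblast (background 13.9%) and 5 of 17 in ExE (18.5%). G9a-Glp knockouts had 6 of 15 (34.6%) and 3 of 16 (15.1%), and Rnf2 knockouts 3 of 15 (31.1%) and 5 of 17 (22.2%). Eed knockouts had 5 of 15 (36.9%) and 5 of 17 (40.8%). All were higher levels but for 1 gene in Dnmt1 epiblast and 1 in G9a-Glp ExE. Xrcc1, the repair scaffold that acts after Tdg, was higher in Dnmt1 knockouts in both tissues (2.19 in epiblast and 2.10 in ExE), in G9a-Glp knockout epiblast (1.87) and in Rnf2 knockouts (1.18 and 1.26). Other genes of the list were also higher, among them Idh2 in Dnmt1 knockouts (1.70 and 1.19) and Gadd45b in Rnf2 and Eed knockout ExE (1.59 and 1.58).

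The fourth list held 30 germline genes known to be silenced by promoter methylation, of which 27 were in the table. In wild type, 6 were higher and 1 lower of 9 tested in BDF1xCAST ExE against epiblast, and 5 higher and 2 lower of 11 in CASTxBDF1. Over all genes, 28.3% were higher and 28.4% lower in BDF1xCAST, and 22% and 23% in CASTxBDF1. Genes silent in both groups were not tested, so a gene silent in wild type entered a knockout comparison only through reads in the knockouts, and the counts below are descriptions with that choice in them. In Dnmt1 knockout, 11 of 15 tested were higher in epiblast, where 5 of the 15 had under 10 reads in every wild-type library, and 3 were higher and 2 lower of 14 in ExE. The highest in epiblast were Tuba3b (6.98), Dazl (6.42), an RNA-binding protein of germ cells, and Tuba3a (5.88), of which Tuba3b and Dazl had at most 1 read in any wild-type library.

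In Rnf2 knockout, 16 of 17 were higher in epiblast, 5 of the 17 with under 10 reads in every wild-type library, and 10 were higher and 1 lower of 15 in ExE. Tex101 (8.29) and the meiotic genes Tex11 (6.87) and Sycp1 (6.39) had at most 2, 3 and 6 wild-type reads in a library. In G9a-Glp knockout, 6 were higher and 1 lower of 10 in epiblast and 8 higher of 15 in ExE. Magea10 had 0 reads in all wild-type libraries of both tissues and averaged 58.2 ± 15.4 CPM (n = 6) and 66.8 ± 28.8 CPM (n = 8) in G9a-Glp epiblast and ExE. In Eed knockout, 8 were higher and 1 lower of 11 in epiblast and 8 higher of 15 in ExE. Over all genes, 6.92 and 8.54% (Dnmt1 epiblast and ExE), 19.6 and 8.73% (G9a-Glp), 18.3 and 12.2% (Rnf2), and 18 and 22.7% (Eed) were higher. Called in either direction were 13.9 and 18.5% (Dnmt1), 34.6 and 15.1% (G9a-Glp), 31.1 and 22.2% (Rnf2), and 36.9 and 40.8% (Eed).

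The alleles were compared next, which the choice of these genes did not use. In wild type, 0 of 8 genes differed by parent of origin in epiblast (background 0.319%) or in ExE (background 0.844%) in the allelic edgeR model. Strain differences passed for 3 of 8 genes in epiblast (background 42.9%) and 4 of 8 in ExE (background 49.1%), all toward BDF1. Toward BDF1 were 34.8 and 39% of all genes, and the median gene was at a log2 BDF1 to CAST ratio of 0.22. Reads were aligned to mm10, and whether alignment favoured reads of either genome was not tested. The shares below are therefore shares of counted reads. Uhrf1 had the smallest p, with BDF1 shares of 86.8 to 92.1% in BDF1xCAST epiblast and 84.6 to 90.3% in CASTxBDF1 (log2 ratio 2.95 ± 0.10, adjusted p = 7.81e-16). In ExE its log2 ratio was 2.46 ± 0.14 (adjusted p = 9.44e-12), and its mean share was 80.7 to 89.4% in each of the 12 groups. Dppa3 had a mean BDF1 share of 93.9% ± 13.4 in the 6 BDF1xCAST epiblasts with at least 10 reads and 95.7% ± 3.26 in the 4 CASTxBDF1 epiblasts (log2 ratio 4.20 ± 0.48, adjusted p = 3.07e-07).

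The smaller strain differences were those of Tet1 (0.26 ± 0.10 in epiblast, adjusted p = 0.0402, and 0.63 ± 0.14 in ExE, adjusted p = 0.000767), Dnmt1 in ExE (0.30 ± 0.10, adjusted p = 0.0153) and Dnmt3l in ExE (0.26 ± 0.10, adjusted p = 0.044). Leaving out CASTxBDF1 embryo 4 ended the calls of Tet1 in epiblast and of Dnmt1 and Dnmt3l in ExE (adjusted p of 0.153, 0.0528 and 0.0849). The Tet1 epiblast call was also lost without embryo 1 or 3 (0.0681 and 0.0541), and the Dnmt3l call without embryo 2 or 3 (0.0645 and 0.167).

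In Rnf2 and Eed knockout epiblast, both alleles of Dppa3 held more reads than in wild type. In Rnf2 knockout epiblast the BDF1 allele averaged 168 CPM (40.0 to 339) and the CAST allele 29.0 CPM (7.08 to 50.7), against 10.2 CPM (2.42 to 21.5) and 0.46 CPM (0 to 1.98) in wild type. Both alleles of every Rnf2 knockout library lay above the wild-type range, as they did in Eed knockout epiblast (BDF1 37.9 to 165 CPM, CAST 5.88 to 22.1 CPM). The share of all genes that separate in this way by allele was not computed. Total reads of Dppa3 did not overlap either, as for 12.3% (Rnf2) and 7.36% (Eed) of all genes. The BDF1 share was 85.1% ± 4.49 in Rnf2 (n = 6) and 87.4% ± 3.13 in Eed knockout epiblast (n = 9).

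The allelic ratio itself passed for 1 gene in 1 knockout. In Rnf2 knockout epiblast Dnmt3b passed, against a background of 0.686%. Its BDF1 share was 52.1, 63.3, 52.7, 62.0, 63.7 and 64.7% in embryos 1, 2, 3, 5, 6 and 8, against 45.6 to 54.5% in wild type (log2 ratio change 0.66 ± 0.12, adjusted p = 0.00818). Embryos 1 and 3 lay inside the wild-type range and the other 4 above it. The change did not pass in limma on log ratios (adjusted p = 0.0584). Of the 7 to 9 genes that could be tested in each of the 8 knockout comparisons, no other passed. Tet2 was untested in every epiblast comparison, and Tdg and Dppa3 in every ExE comparison. The other backgrounds were 0.894% and 0.843% (Dnmt1 epiblast and ExE), 1.79% and 1.1% (G9a-Glp), 0.911% (Rnf2 ExE), and 1.06% and 2.65% (Eed). In Eed knockout epiblast, without a call, 5 of the 9 embryos had Dnmt3b shares of 57.5 to 59.4% and the other 4 of 45.3 to 48.8%.

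**Figure D4:**
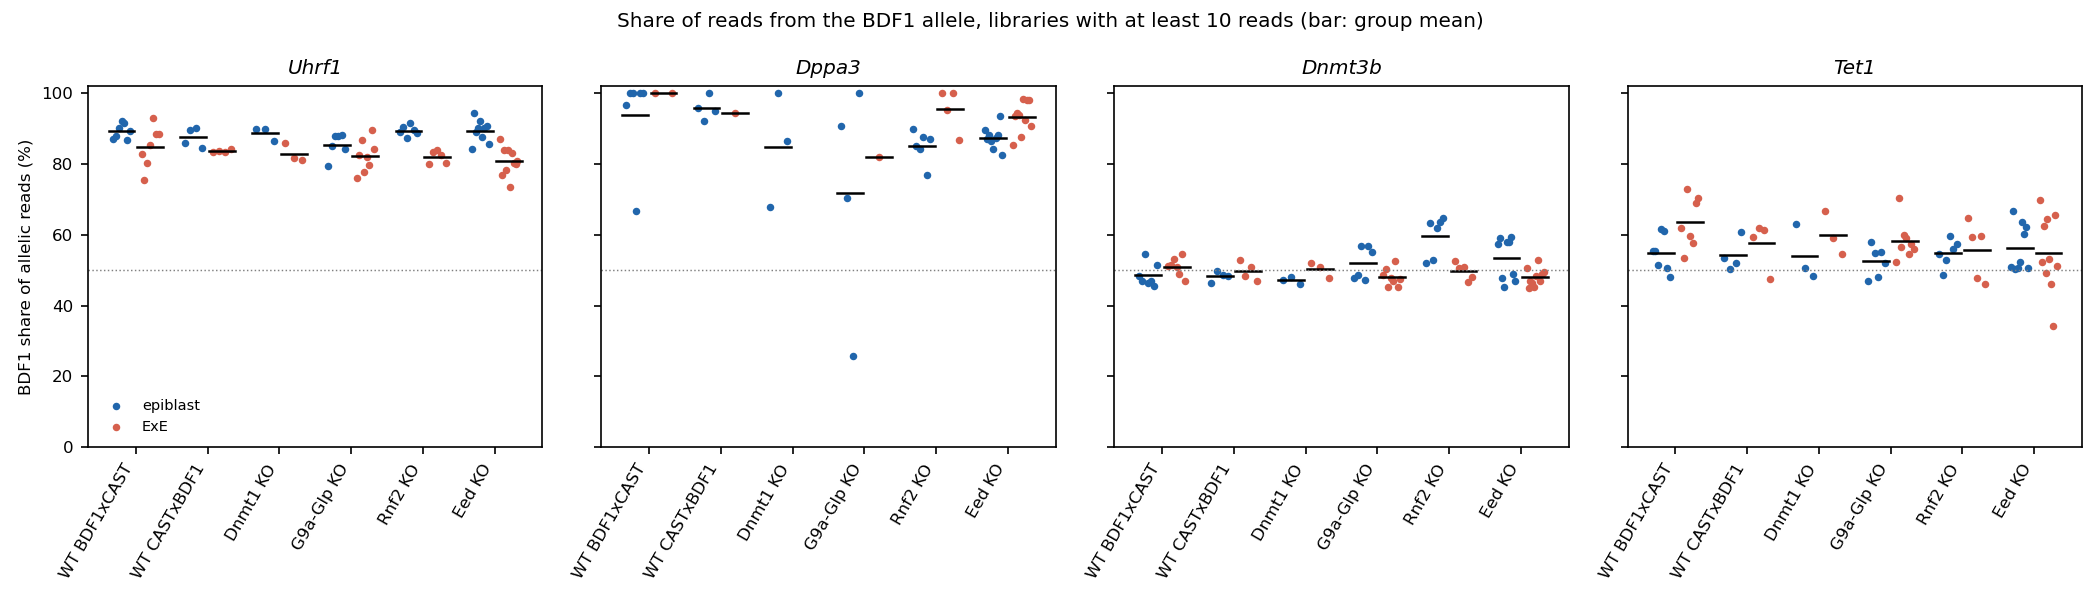
Share of reads from the BDF1 allele (%) in libraries with at least 10 reads, for Uhrf1, Dppa3, Dnmt3b and Tet1, with bars at the group means and a dotted line at equal shares. Uhrf1 lies near 80 to 90% in every group (means of 80.7 to 89.4%), and Dnmt3b in Rnf2 knockout epiblast has 4 embryos at 62.0 to 64.7% and 2 near 52%.

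Across the 12 group means, the pattern of Dnmt3l on the log2(CPM + 1) scale was most like those of Otud3 (Pearson r = 0.975), Kctd6 (0.967) and Tmem54 (0.961) among 9379 genes with a mean of at least 5 CPM. The pattern of Dnmt3a was most like those of Foxp1 (0.996), Usp28 (0.995) and Lef1 (0.995). These correlations describe 12 points that share wild-type controls, tissues and library depth.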

How the data were processed

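RNA-seq libraries of single E6.5 tissues were analysed, 72 in all. The authors deposited, per the file headers, the count of reads over BDF1 and CAST polymorphisms per gene, summed over both alleles without normalization, with an allelic ratio and a signed allelic score. Tools named in the submitters' processing notes were STAR 2.5.0 and HTSeq, with mm10. Allele counts were recovered from ratio and score, and 99.99% of scored values matched a whole number. At the limit of the score, values holding 7.73% of reads took the ratio alone.

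Total counts were tested with edgeR 4.0.16 (quasi-likelihood, TMM scaling, filterByExpr, two-sided), and alleles with an allelic edgeR model, with a term for each library, on autosomal genes with at least 10 reads in 3 libraries of each group. Benjamini-Hochberg adjustment covered all genes tested, at 0.05. CPM used library totals, without scale factors. The total and allelic models were also run on simulated counts with the same spread for every gene and independent libraries. Mosaic targets and paired tissues were not simulated. DESeq2 1.42.0, limma 3.58.1, other scalings, no filter, thinning, embryo sex, blocks and left-out libraries were alternatives.

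The genes and lists were chosen with earlier results of these data known. All 10 genes are described. From each list, up to 3 genes a direction without overlap between groups could be named. For likeness, the genes with the largest lineage difference each way were taken. In wild type, epiblast and ExE of one embryo share its number by label, and their deviations correlated at 0.015 to 0.42 (0.048 to 0.33 in CASTxBDF1); knockouts and wild type share only numbers. No 2 libraries agreed within counting noise. A bisulfite sample was not analysed here.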

Additional observations from a re-analysis of the deposited data

Results flagged for a closer look

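In 6 of 100 sets of 1 gene in 1 group, the highest library stood apart from the rest of its group; chance gives about 1 in 20. These were Dnmt3l in wild-type BDF1xCAST epiblast embryo 8 (24.4 CPM, next 10.1) and Dnmt3l in Rnf2 knockout epiblast embryo 6 (202 CPM, next 72.6). That wild-type library was the highest of its group in visceral endoderm (656 CPM), ExE, epiblast and nascent mesoderm markers. In wild-type BDF1xCAST ExE, embryo 6 stood apart for both Dnmt3l (171 CPM, next 105) and Uhrf1 (180 CPM, next 98.3). The others were Uhrf1 in G9a-Glp knockout ExE embryo 2 (156 CPM, next 101) and Tet2 in G9a-Glp knockout epiblast embryo 2 (3.05 CPM, next 1.22), one of the 2 libraries of its group highest in Ehmt1.

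In 10 cases the response to a knockout differed between ExE and epiblast by the interaction test. The log2 differences were 0.98 for Dnmt3a, −0.82 for Dnmt3b and −1.94 for Dnmt3l in G9a-Glp knockouts. In Rnf2 knockouts they were −3.30 for Dnmt3l, 1.03 for Tet3 and −3.41 for Dppa3. In Eed knockouts they were 1.06 for Dnmt3a, −1.19 for Dnmt3b, −2.08 for Dnmt3l and 1.53 for Tet3. Dnmt3l is the gene present in all 3 sets. In Rnf2 knockouts, Dppa3 entered the test through its epiblast reads. There Dppa3 and Tet3 did not pass after thinning or without ExE embryos 2, 5 and 6. In G9a-Glp knockouts, Dnmt3a and Dnmt3b did not pass without epiblast embryos 2 and 7.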

How the results depend on the processing

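Of 55 calls on the 10 genes, 34 passed in every alternative run for them (3 to 21 each), 21 did not pass in at least 1, and 0 changed direction. A further 11 pairs of gene and comparison passed only in an alternative. Of 170 pairs that never passed, 51 changed sign in at least 1 alternative. Leaving out each wild-type library, each BDF1xCAST embryo in the lineage comparison, or Rnf2 epiblast embryo 6 was added after seeing the data. Single knockout libraries were left out only for Dnmt1, Rnf2 ExE and Rnf2 epiblast embryo 6. The ranges below for G9a-Glp and Eed with libraries left out thus come from wild-type libraries alone. Counts of genes called moved as follows, and the cause was not tested. Dnmt1 epiblast went from 1 to 2 with no filter on low counts, with all 12 groups in 1 fit and with the replicate block, and was 1 to 2 with single libraries left out. Dnmt1 ExE went from 1 to 2 with DESeq2, no scale factors, no filter or embryo sex as a term, to 4 with the replicate block, and 0 to 2 with libraries left out. G9a-Glp epiblast went from 2 to 1 without embryos 2 and 7, and 1 to 2 with libraries left out. Rnf2 epiblast went from 5 to 3 with no filter and with the replicate block. Rnf2 ExE went from 2 to 1 with the replicate block and without embryos 2, 5 and 6, and 1 to 2 with libraries left out. Eed epiblast went from 4 to 1 with the replicate block, and 2 to 5 with libraries left out (2 without wild-type embryo 3). The G9a-Glp interaction went from 3 to 1 with all 12 groups in 1 fit and without embryos 2 and 7, and the Rnf2 interaction from 3 to 1 after thinning and without ExE embryos 2, 5 and 6. The allelic Rnf2 epiblast count went from 1 to 0 with limma and with the replicate block, and the ExE strain count was 2 to 4 with libraries left out. The replicate block, in which knockout and wild-type embryos share only a number, ended 10 calls and added 5. Without scale factors the median log2 fold change of all genes moved to 0.21 and 0.23 (Dnmt1 epiblast and ExE) and 0.17 and 0.19 (Eed), and the share of calls that were higher moved from 49.6 to 71.6%, 46.2 to 72.1%, 48.8 to 72.1% and 55.6 to 73.5%. Depth limits Tet2 in epiblast, Dppa3 in ExE and Tdg in both tissues.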
